A study of Homo sapiens with 6 samples.

Results

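The genes described here are the human DEAD-box and DEAH-box RNA helicases, measured in IMR32 cells treated with teriflunomide or with its vehicle. They were taken by name: every probe set of the array whose single gene symbol begins with DDX or DHX and a digit, without pseudogenes and antisense transcripts. The rule gave 121 probe sets of 51 genes, out of 41097 probe sets with a single symbol and 19775 genes. IMR32 is an established human neuroblastoma line with an amplified MYCN gene, and teriflunomide inhibits dihydroorotate dehydrogenase (DHODH), an enzyme of pyrimidine synthesis. The control group, of 3 arrays, came from cells given 0.1% DMSO for 24 h, and the treated group, also of 3, from cells given 118 µM teriflunomide over the same time. The labels call the arrays biological replicates without saying whether these were separate cultures, so the p-values speak only of the scatter among these 6 arrays. Whether the treated wells also held DMSO was not stated. DDX47 and DDX39B appeared only on probe sets that carry several symbols, and DDX3Y, a Y-linked gene, stays in the counts but its values are not given.

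DEAD-box and DEAH-box proteins are ATP-driven enzymes that unwind short RNA duplexes or strip proteins from RNA. They are named after amino acids of a conserved ATPase motif, and each acts at particular steps of an RNA's life. Many work in the nucleolus on the precursor of ribosomal RNA, others drive rearrangements of the spliceosome, and others act in export, translation and decay of mRNA or in the sensing of viral RNA.

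Most of the helicase genes that changed were lower with teriflunomide. Of the 51 genes, 45 had a probe set bright enough to be tested, which required a value no lower than the array median on 3 or more of the 6 arrays. With teriflunomide 26 of them were lower, 5 were higher and 14 did not pass (limma, adjusted p under 0.05 over all 11998 genes tested). Lower genes were 57.8% of the helicases and 28.9% of all genes tested, and higher genes were 11.1% of the helicases and 29.7% of all genes. Calls in either direction made up 58.6% of all genes tested. The median log2 fold change was -0.29 over the helicases and 0.0015 over all genes. The changes were modest in size: 3 helicases (DDX51, DHX9 and DDX10) fell at least 2-fold, where 4.53% of all genes did, and none of the 45 rose as much, where 5.24% of all genes did.

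All 3 teriflunomide arrays lay below all 3 DMSO arrays for 27 helicases, or 60%, where 33.1% of all genes did. For 5, or 11.1%, they lay above, where 33.9% of all genes did. Over all genes tested, the arrays did not overlap in 67%. When the arrays were centred on their poly-A spike controls, 26 helicases were lower and 1 higher, because the small rises of DDX27, DDX41, DDX42 and DDX50 no longer passed. That centring moved the median of all genes from 0.0015 to -0.08. Fewer cells of a type and less RNA per cell cannot be told apart in such bulk samples, and GCRMA, which brings arrays to a common distribution, would hide a change shared by all genes.

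Among the genes named DDX, 30 were tested, and 19 were lower and 5 higher. Among those named DHX, 15 were tested, 7 were lower and 0 higher by limma, also 0 at an unadjusted p under 0.05. The medians of the log2 fold changes were -0.36 and -0.10. Over all genes tested 28.9% were lower, 29.7% were higher and 58.6% were called in either direction. Whether the DDX and DHX families differ was not tested.

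**Figure D1:**
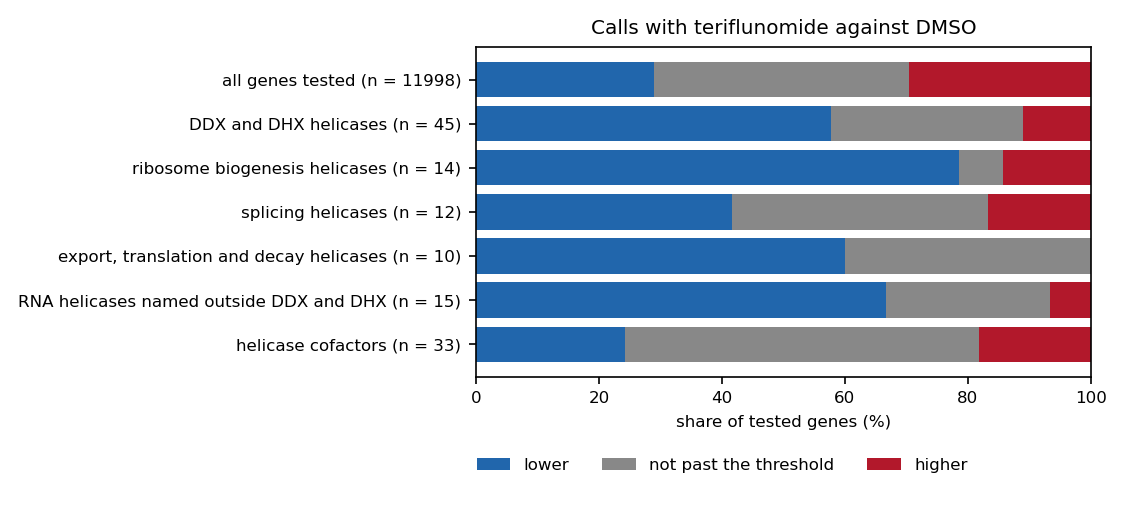
Share of tested genes (horizontal axis, percent) that were lower, not past the threshold or higher with teriflunomide (limma, adjusted p under 0.05), for all genes, for the DDX and DHX helicases, for 3 of their roles and for both lists of related genes; n is the number of genes tested. Lower genes take 57.8% of the helicases against 28.9% of all genes.

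Signs of sample identity and RNA quality stood as follows. Of 12 neuroblastoma markers on the array 10 passed the filter, MYCN among them, and the mean log2 level of all 12 was 9.11 to 9.23 on the DMSO arrays and 8.98 to 9.05 on the teriflunomide arrays. Of the 10, 3 were lower (CHGA at -1.46, MYCN and NCAM1) and 3 higher (PHOX2A at 0.76, GATA3 and ISL1). Of 17 markers of blood, endothelial, epithelial, fibroblast, liver and glial cells 4 passed (EPCAM, COL1A1, COL3A1 and PDGFRB), with a mean level over the list of 3.38 to 3.41 and 3.45 to 3.50. COL1A1 rose by 0.94 and the other 3 did not pass the threshold. The list mean hides that COL1A1 and COL3A1 were bright, with DMSO means of 10.81 and 10.56. PDGFRB and EPCAM were at 5.22 and 2.73. For ACTB the 3' probe set exceeded the 5' one, a measure of how intact the labelled RNA was, by 1.36 ± 0.032 (log2, SD, n = 3) on the DMSO arrays. On the teriflunomide arrays it did so by 1.62 ± 0.070 (SD, n = 3), more on every treated array. An exact permutation test gave p = 0.1, the smallest this design allows. In GAPDH the gap was 0.050 with DMSO and 0.063 with teriflunomide (exact permutation p = 0.4). The part of these differences in the helicase results was not tested.

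Promoter sequence is shown for the 5 helicases that fell most and the 2 that rose most, so that members that fell together can be compared with members that rose. RefSeq promoters (GRCh38.p14, 250 bases before to 50 after the start) matched 41 of the 44 tested genes other than DDX3Y. The lines give the 100 bases before the start, 5′ to 3′ on the gene's strand. Capitals mark matches to 6 motifs searched on both strands: the E-box CACGTG, bound by MYC family proteins, the box CCAAT, bound by NF-Y, the cyclic AMP response element TGACGTCA, the ETS core CCGGAAG, the TATA box TATAAA, and the composite site TGATGNAA of ATF4 and C/EBP. In DDX10 the response element and a CCAAT box on the other strand share 1 base. DDX31 and DDX59 have further starts downstream, whose sequences are not shown, and DDX51 has its response element outside the stretch shown.
DDX51, chr12:132144320-132144419, minus strand: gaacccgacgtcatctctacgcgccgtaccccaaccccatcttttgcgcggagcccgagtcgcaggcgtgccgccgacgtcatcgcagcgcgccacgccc
DHX9, chr1:182839247-182839346, plus strand: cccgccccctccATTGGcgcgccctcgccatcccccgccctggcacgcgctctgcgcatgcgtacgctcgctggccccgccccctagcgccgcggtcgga
DDX10, chr11:108664969-108665068, plus strand: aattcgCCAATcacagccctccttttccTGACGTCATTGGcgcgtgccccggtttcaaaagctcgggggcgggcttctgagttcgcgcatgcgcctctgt
DDX31, chr9:132669984-132670083, minus strand: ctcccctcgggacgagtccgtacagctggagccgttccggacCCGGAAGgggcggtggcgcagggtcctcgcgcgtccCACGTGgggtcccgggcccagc
DDX28, chr16:68023233-68023332, minus strand: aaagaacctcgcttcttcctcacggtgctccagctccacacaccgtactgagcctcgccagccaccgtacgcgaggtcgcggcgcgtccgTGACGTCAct
DDX59, chr1:200669908-200670007, minus strand: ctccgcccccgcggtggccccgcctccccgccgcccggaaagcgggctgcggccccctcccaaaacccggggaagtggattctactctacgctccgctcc
DDX41, chr5:177516962-177517061, minus strand: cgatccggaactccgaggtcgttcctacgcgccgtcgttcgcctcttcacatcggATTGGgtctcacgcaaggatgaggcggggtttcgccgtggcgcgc

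No single motif was common to all the sequences shown. The box CCAAT was marked in the fallen DHX9 and DDX10 and in the risen DDX41. Counted over the whole window of 300 bases at any start of a gene, the response element TGACGTCA was in 4 of 22 lower genes (DDX51, DDX10, DDX28 and DDX19A), in 0 of 5 higher genes and in 1 of 14 that did not pass, and in 2.25% of all genes in the promoter table. It was added to the search after these sequences had been read. The box CCAAT was in 13 of 22 lower genes, 2 of 5 higher and 6 of 14 others, against 39.7% of all genes. The E-box CACGTG was in 6 of 22, 0 of 5 and 4 of 14, against 8.77%, and DDX31, DHX37 and DDX21 were among the lower genes with it. The ETS core was in 8 of 22 lower, 4 of 5 higher and 9 of 14 other genes, against 12.2% of all. The TATA box was in 1 of 22 lower, 0 of 5 higher and 2 of 14 other genes, against 14.0% of all. The site TGATGNAA was in none of the 41, against 4.46%. These are matches of letters, and binding was not measured. The promoter table holds 27305 genes, whether or not they were bright enough to be tested. Its shares are thus not those of the tested genes, which were not counted, and give no matched comparison for the helicases.

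Most ribosome biogenesis helicases fell. Of 14 genes, all tested, 11 were lower and 2 higher, where 28.9% and 29.7% of all genes were, and 1 did not pass; their median was -0.71 on the log2 scale. The lower genes act on both ribosomal subunits. The next paragraphs take first the helicases of the small subunit precursor, then those of the large subunit, then the nucleolar pair DDX21 and DDX50. The plot of these genes on every array shows the separation of the groups.

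DDX10, a helicase needed to release a snoRNA from the small subunit precursor, read 11.05, 11.16 and 11.09 on the DMSO arrays and 10.11, 10.07 and 10.10 on the teriflunomide arrays (log2 intensity). The groups were far apart beside their spread, 11.10 ± 0.057 and 10.09 ± 0.018 (SD, n = 3 each). It fell by 1.01 on the log2 scale (SE 0.039, limma adjusted p = 3.85e-05), or 2.01-fold. DHX37, which dissociates the U3 snoRNA from the maturing precursor, had 8.70, 8.69 and 8.46 in DMSO against 7.58, 7.78 and 8.03. Every treated value was lower, with more scatter than in DDX10. The change of DHX37 was -0.82 (SE 0.14, limma adjusted p = 0.0037), and a further DHX37 probe set changed by -1.0. DDX52 fell by 0.72, and all of its 3 tested probe sets were called lower, with changes of -0.36 to -0.85. DDX49, of the same precursor, fell by 0.54 on the probe set used and by 0.65 on another, while a dimmer one at -0.26 did not pass.

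DDX51, which acts early in large subunit assembly, had the largest change when each gene was read on its brightest probe set. Its DMSO arrays read 8.70, 8.30 and 8.50 and its teriflunomide arrays 7.27, 7.54 and 7.34. The lowest control was thus well above the highest treated array. DDX51 fell by 1.11 (SE 0.12, limma adjusted p = 0.000843), or 2.17-fold, on its 1 tested probe set, and its other 2 lay at the floor of the arrays. DDX31, another factor of the large subunit, gave 9.42, 9.55 and 9.35 in DMSO and 8.34, 8.55 and 8.55 with the drug. Its change was -0.96 (SE 0.082, limma adjusted p = 0.000348), with -0.86 on a further probe set. DDX55 was at 10.34, 10.25 and 10.23 against 9.38, 9.49 and 9.46. This gene fell by 0.83 (SE 0.048, limma adjusted p = 0.000104), with no overlap between groups. DDX56 fell by 0.70 on both of its probe sets.

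DDX24, DDX54 and DDX27, the remaining members of the large subunit group, changed less. DDX24 fell by 0.29, a call that was lost without DMSO replicate 1 (-0.27), DMSO replicate 3 (-0.28), teriflunomide replicate 2 (-0.26) or teriflunomide replicate 3 (-0.25), and with no filter (-0.29). A dimmer DDX24 probe set stood at -0.40 and did not pass. DDX54 stood at -0.17 and did not pass, with a 95% interval from -0.38 to 0.03. DDX27 read 10.94, 10.93 and 10.92 in DMSO and 11.07, 11.10 and 11.02 with teriflunomide. It rose by 0.13 (SE 0.033, limma adjusted p = 0.019) on a probe set of a type that can cross-hybridise. The call was lost with poly-A spike centring (0.05), with the mean of its probe sets (0.06), with the replicate block (0.13) and without DMSO replicate 3 (0.13), teriflunomide replicate 1 (0.13) or teriflunomide replicate 2 (0.11), and a more specific DDX27 probe set stood at -0.02. DHX33, which promotes transcription of rRNA genes by RNA polymerase I, fell by 0.73 and changed by -0.78 on another probe set.

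DDX21 and DDX50 are close nucleolar relatives, and they did not change in the same direction. DDX21, which couples RNA polymerase I transcription with rRNA processing, was at 13.94, 13.94 and 14.00 in DMSO and at 13.83, 13.76 and 13.74 with teriflunomide. The arrays did not overlap, but the fall was small: 0.18 (SE 0.039, limma adjusted p = 0.00991), and 0.28 on the other probe set. DDX50 read 11.84, 11.91 and 11.92 against 12.08, 12.12 and 12.03. It rose by 0.19 (SE 0.040, limma adjusted p = 0.0104), a call lost with poly-A spike centring (0.10), with the mean of its probe sets (0.08) and with the more specific type of probe set preferred (0.004, on one near log2 3.77). Its further probe sets at 0.04 and 0.004 did not pass. The difference between the changes of the pair was not tested.

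**Figure D2:**
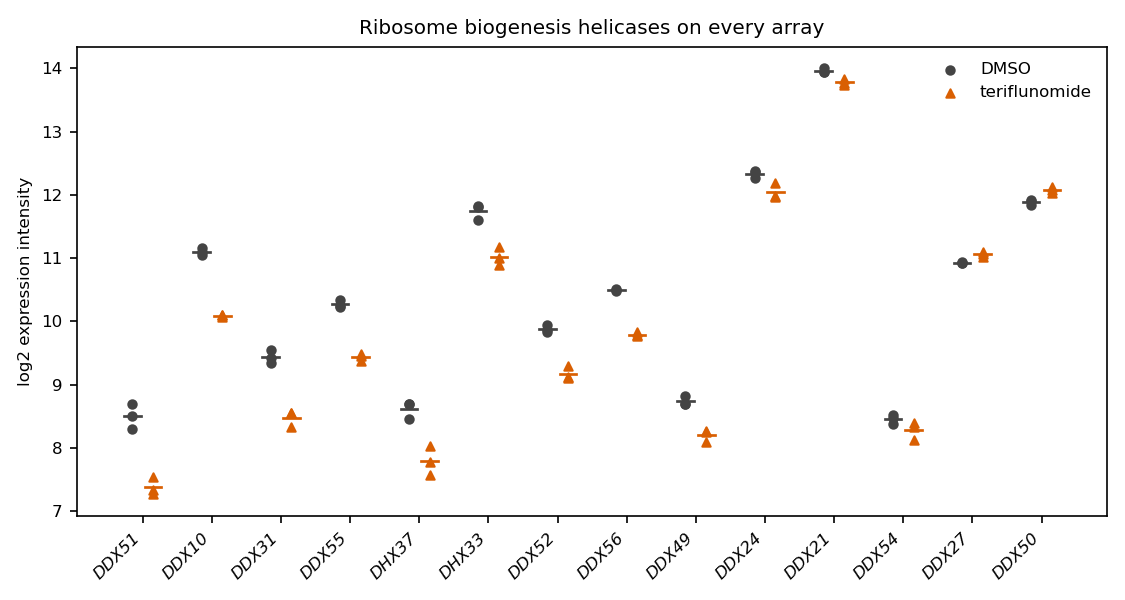
Log2 expression intensity (vertical axis) of the 14 ribosome biogenesis helicases on each of the 6 arrays; circles are DMSO arrays, triangles teriflunomide arrays and short lines group means (n = 3 each), with genes ordered by fold change. Treated arrays lie below the controls for 11 genes, from DDX51 to DDX21, and above them for DDX27 and DDX50; levels of different genes are not comparable.

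Splicing helicases were divided. Of 12 genes tested 5 were lower, 2 were higher and 5 did not pass, and their median was -0.07. Among all genes 28.9% were lower and 29.7% higher, and the share called in either direction was 58.6%, near that of this role. The lower ones include helicases of the early spliceosome. DDX23, the human counterpart of yeast Prp28, which displaces U1 from the 5′ splice site, had 9.35, 9.42 and 9.15 in DMSO and 8.48, 8.64 and 8.13 with teriflunomide. It fell by 0.89 (SE 0.15, limma adjusted p = 0.00405), and by 0.90 on a further probe set. DDX46, the counterpart of Prp5, which acts with the U2 particle, fell by 0.71 and by 0.83 on its 2 probe sets.

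DHX15, the counterpart of Prp43, takes spent spliceosomes apart and also acts in ribosome assembly. Its readings were 13.86, 13.87 and 13.86 in DMSO and 13.36, 13.41 and 13.28 in treated cells. The DMSO arrays were almost identical, and its change of -0.51 (SE 0.041, limma adjusted p = 0.000273) came with one of -0.78 on its other probe set. DDX39A, which loads export factors on mRNA but was counted here with the splicing helicases, fell by 0.49. DHX35 fell by 0.29, a call lost with the mean of its probe sets (-0.38).

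Among helicases of the catalytic steps, DHX16, DHX38 and DHX8 did not pass. DHX16, the counterpart of Prp2, stood at -0.10 (95% interval -0.24 to 0.04), DHX38, that of Prp16, at 0.05 (-0.04 to 0.13), and DHX8, that of Prp22, at 0.07 (-0.10 to 0.24). The intervals of DHX16 and DHX8 leave room only for changes below those of DDX23 and DDX46. DHX38 was dim, at 5.60 on every DMSO array and at 5.65, 5.60 and 5.69 with teriflunomide. Readings so nearly constant may hold little signal, so its interval may not bound a change. DDX5, a splicing regulator and transcriptional coactivator, read 11.02, 10.79 and 10.87 in DMSO and 10.92, 10.83 and 10.83 with teriflunomide. The groups overlapped, and the change was -0.03 (95% interval -0.20 to 0.14). A brighter DDX5 probe set (DMSO mean 14.84) also carries microRNA symbols and so lies outside the members. It changed by -0.17 (95% interval -0.34 to 0.01) and did not pass. DDX17, a relative of DDX5, gave 13.64, 13.53 and 13.52 against 13.68, 13.72 and 13.58, also overlapping. The change of DDX17 was 0.10 (95% interval -0.04 to 0.23). Of 5 DDX17 probe sets, 1 dim one was called higher, by 0.52 from a DMSO mean of 5.35, and the other 4 did not pass.

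DDX41 and DDX42 were the splicing helicases that rose. DDX41, which is mutated in inherited myeloid malignancy, had 9.81, 9.70 and 9.73 in DMSO and 10, 10.10 and 9.96 with teriflunomide. It rose by 0.28 (SE 0.053, limma adjusted p = 0.00657), and it did not pass with poly-A spike centring (0.19). DDX42, an SF3B-associated helicase, read 12.23, 12.15 and 12.13 against 12.41, 12.41 and 12.32. The treated arrays lay above all controls, and the rise was 0.20 (SE 0.045, limma adjusted p = 0.0111). It did not pass with poly-A spike centring either (0.12), while a dimmer DDX42 probe set rose by 0.65.

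**Figure D3:**
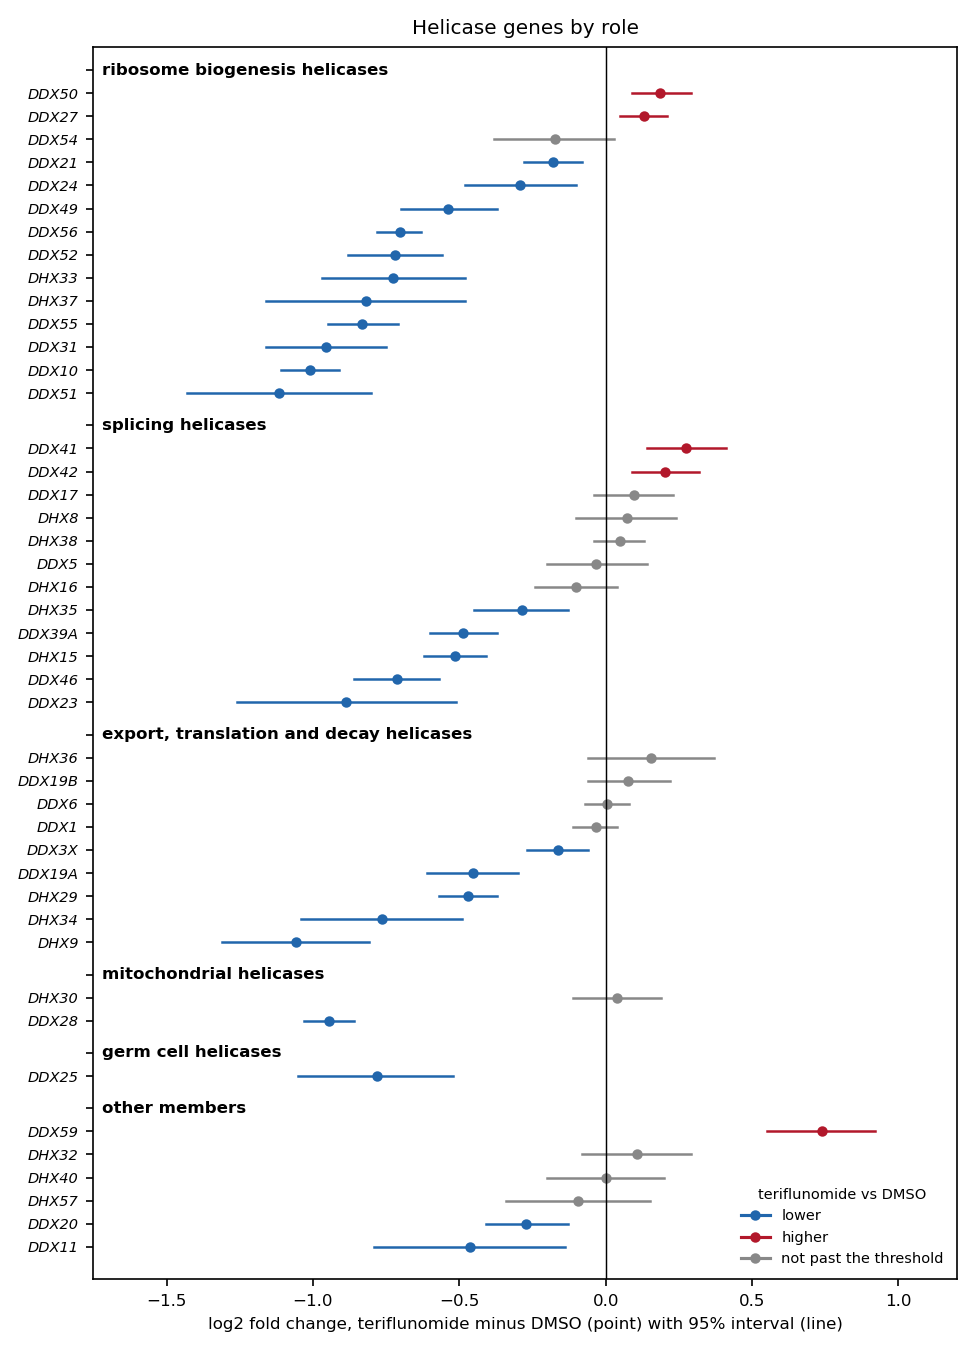
Log2 fold change of teriflunomide over DMSO (horizontal axis, points) with 95% intervals from limma (lines) for the 44 tested helicase genes other than DDX3Y, grouped by role; blue genes were lower, red genes higher and grey genes did not pass. DDX51 lies at -1.11, DHX9 at -1.06 and DDX59 at 0.74.

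Of the helicases of export, translation and decay, 10 were tested. Here 6 were lower, 0 were higher by limma (0 also at an unadjusted p under 0.05) and 4 did not pass, the median being -0.30. Among all genes 28.9% were lower and 29.7% higher. DHX9, or RNA helicase A, which unwinds RNA in transcription and translation and resolves structures of inverted repeats, fell most in this role. The DMSO values were 12.91, 12.92 and 12.80 and the teriflunomide values 11.62, 11.96 and 11.89. A gap wider than the spread of either group separated them. Its change was -1.06 (SE 0.099, limma adjusted p = 0.000472), or 2.08-fold, and its other 2 probe sets fell by 0.88 and 0.89.

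DHX34, of nonsense-mediated decay, fell by 0.76, and a dim probe set at -1.01 did not pass. DHX29, which helps ribosomes scan structured leaders, fell by 0.47, while a dimmer probe set at -0.10 did not pass and the mean of its probe sets fell by 0.29. DDX19A, of mRNA export at the nuclear pore, fell by 0.45, and by 1.14 on a further probe set. Its near-identical relative DDX19B was dim (3.83 and 3.91) and did not pass at 0.08, and probe sets may not tell the pair apart. A probe set that carries both symbols, outside the members, went the other way, by 0.22, with all treated arrays above the controls. It did not pass (limma adjusted p = 0.0563 over all probe sets tested). DDX3X, which helps the translation of mRNAs with structured leaders, gave 14.29, 14.18 and 14.20 in DMSO and 14.08, 14.07 and 14.02 with the drug. It fell by 0.16 (SE 0.043, limma adjusted p = 0.0202), a call lost without teriflunomide replicate 3 (-0.15) and with poly-A spike centring (-0.25). Further DDX3X probe sets fell by 0.32 and 0.37, and 1 at -0.04 did not pass. Signal of DDX3X and of its near-identical Y-linked copy may mix on these probe sets.

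DDX6 and DHX36 did not pass. DDX6, a core component of P-bodies and of mRNA repression, read 12.73 on all 3 DMSO arrays and 12.71, 12.73 and 12.77 with teriflunomide. Its change was 0.003 (95% interval -0.07 to 0.08). DHX36, which resolves G-quadruplexes, gave 12.98, 12.82 and 12.88 against 12.98, 12.95 and 13.21, a change of 0.16 (95% interval -0.06 to 0.37). The groups overlapped in both genes. The change of DHX36 turned to -0.41 on a dim probe set of the more specific type and to -0.04 with the mean of its probe sets, also not past the threshold.

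DDX1, a helicase of the tRNA ligase complex, lies next to MYCN and is amplified along with it in some neuroblastomas. The DMSO arrays read 15.93, 15.92 and 15.96 and the teriflunomide arrays 15.92, 15.91 and 15.88. These are close to the highest values of any probe set, 16.22 to 16.31 per array. The change was -0.03 (95% interval -0.11 to 0.04) and did not pass, although the treated values, before rounding, all lay below the controls. MYCN itself fell by 0.43 (limma adjusted p = 0.000841). The difference between the changes of these genes was not tested.

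The mitochondrial helicases were DDX28 and DHX30, which both act in assembly of the mitochondrial ribosome. DDX28 had 9.36, 9.29 and 9.28 in DMSO and 8.37, 8.34 and 8.39 with teriflunomide. The values within each group were tight, and DDX28 fell by 0.94 (SE 0.035, limma adjusted p = 3.61e-05), or 1.92-fold, and by 1.10 on a further probe set. DHX30 stood at 0.04 (95% interval -0.11 to 0.19), and none of its 4 tested probe sets passed.

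Antiviral and germ cell helicases were mostly below detection. DDX60 and DHX58, which take part in the response to viral RNA, had the minimum of the arrays, 2.18, on all 6, and DDX60L reached 3.08 at most. The germ cell genes DDX4, DDX43 and DDX53 were also at 2.18 throughout. DDX25, known for its part in sperm formation, was detected, with 7.67, 8.04 and 7.78 in DMSO and 6.97, 7.12 and 7.07 with teriflunomide. It fell by 0.78 (SE 0.10, limma adjusted p = 0.0017). The 6 undetected genes were not tested, and their arrays give only an upper bound on a level. RIGI, the sensor of viral RNA once named DDX58, is listed under its newer symbol and so is not a member; it fell by 0.24.

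Of 6 other members, 1 rose, 2 fell and 3 did not pass, where 29.7% of all genes were higher and 28.9% lower. With so few genes these counts show no trait of the group. DDX59, mutated in an orofaciodigital syndrome, rose most of all helicases. In DMSO it read 10.32, 10.53 and 10.26, and with teriflunomide 11.10, 11.12 and 11.10. All treated arrays were above the controls, and the rise was 0.74 (SE 0.073, limma adjusted p = 0.000566), or 1.67-fold. Another probe set rose by 0.81, while 1 that can cross-hybridise stood at -0.04. The rise kept passing under poly-A spike centring, where it was the 1 helicase gene called higher.

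DDX11, an iron-sulphur DNA helicase of sister chromatid cohesion, had 7.61, 7.23 and 7.49 in DMSO and 7.09, 7.05 and 6.79 with the drug. It fell by 0.46 (SE 0.13, limma adjusted p = 0.0257), but the call was lost with no filter (-0.46), with the mean of its probe sets (-0.36), and without DMSO replicate 1 (-0.38), DMSO replicate 3 (-0.44), teriflunomide replicate 2 (-0.50) or teriflunomide replicate 3 (-0.37). Its other tested probe sets changed by -0.61, which passed, and 0.003, which did not. DDX11 shares sequence with several pseudogene copies. DDX20, of the SMN complex that assembles spliceosomal particles, fell by 0.27 and by 0.54 on its 2 probe sets. DHX32, DHX40 and DHX57 stood between -0.09 and 0.11 and did not pass.

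Probe sets of one gene gave a check within the arrays. In the fit over 22735 probe sets, 96 helicase probe sets were tested, and 46 were lower and 8 higher, where 26.8% and 25.5% of all were. Of the 33 genes with at least 2 tested probe sets, 13 had every one lower and 1 (DDX42) every one higher. In 8 genes some were lower and the rest did not pass, in 4 some were higher and the rest did not pass, and in 7 none passed. In 0 genes were probe sets called in both directions. Called or not, all tested probe sets changed in the same direction in 24 of the 33 genes. Such counts were not made over all genes. Probe sets of a gene share the arrays and are not replicates.

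**Figure D4:**
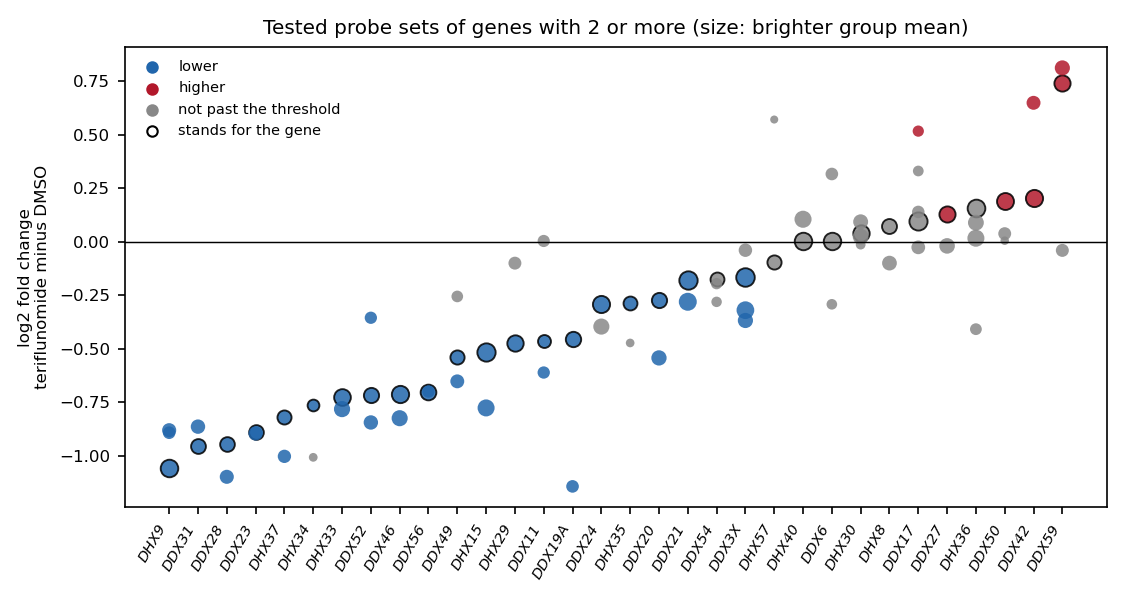
Log2 fold change of teriflunomide over DMSO (vertical axis) of each tested probe set, for the helicase genes with at least 2 (horizontal axis, without DDX3Y); larger points are brighter, ringed points stand for the gene, and colours give the call over all probe sets tested. No gene has probe sets called in both directions, and the DDX59 probe set near 0 sits apart from its others at 0.74 and 0.81.

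Of 15 tested RNA helicases that carry other names, 10 were lower and 1 higher, where 28.9% and 29.7% of all genes were, with a median log2 fold change of -0.25. UPF1, the helicase of nonsense-mediated decay, fell by 0.64, ASCC3, which resolves collided ribosomes, changed by -0.505, and MOV10, which restrains retroelements, rose by 0.68.

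Of 33 tested cofactors of helicases, 8 were lower and 6 higher, shares no larger than the 28.9% and 29.7% of all genes, with a median of -0.06. NKRF, a G-patch partner of DHX15 in ribosome assembly, fell most, by 1.18 (SE 0.053), and GPATCH4 fell by 1.07. GPATCH2, another G-patch protein and DHX15 partner, rose by 1.05, and PATL1, which binds DDX6 in decapping, by 0.46.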

How the data were processed

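RNA from 6 IMR32 samples was measured on Affymetrix HG-U133 Plus 2.0 arrays. The authors deposited 1 log2 intensity for each probe set. GCRMA is the tool that the submitters' processing notes name, with no version or settings given in what was used here. GCRMA models background from probe sequence, so changes near the floor of 2.18 are uncertain. Gene symbols came from the platform annotation. From the deposited log2 values, limma 3.58.1 (R 4.3.3; lmFit and eBayes, no covariates) compared teriflunomide with DMSO. Controls were left out, the filter was the array median on at least 3 of 6 arrays, the brightest probe set by mean stood for a gene, and p-values are two-sided with Benjamini-Hochberg adjustment over 11998 genes. Arrays give no read depth; their number limits precision. The fit was tested on simulated data. Python 3.11.15 drew figures.

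Without 1 array, the filter and the probe set for each gene stayed as chosen on all 6. DDX11L2 was left out as a RefSeq pseudogene and DDX19A-DT as a divergent transcript.

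The members, roles, motifs, lists and tests were chosen with earlier results of these data known. The response element was added to the motif search after the promoters were read, in place of the TATA box, which was later restored so that all 6 motifs are given. All members may be named; per-array values were given for the 8 largest rises (5 passed) and 8 largest falls, the largest change of each role in each direction, members whose probe sets were called in opposite directions (0) and 10 genes fixed by name, of which DDX39B was not tested. Of related genes, the 2 largest changes each way were named. Alternatives were other filters, scalings, probe set choices, variance models, array weights, a replicate block, a raised floor and leaving out arrays. Poly-A spike centring sets each array by the mean of its dap, lys, phe and thr controls.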

Additional observations from a re-analysis of the deposited data

Results flagged for a closer look

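Signal was also present on probe sets that carry a helicase symbol but lie outside the members, with p-values adjusted by limma over all 27290 probe sets bright enough to test. Of 7 probe sets with a helicase symbol among several, all were tested. With teriflunomide 2 were lower, 1 that carries DDX39B by 0.27 and 1 that carries DDX47 by 0.60. By limma 0 were higher (1 at an unadjusted p under 0.05). A further DDX39B probe set, at -0.26, did not pass. Among probe sets with a single symbol 26.8% were lower, a share near that of these 7, and 25.5% were higher. Of 7 probe sets of antisense, divergent or pseudogene transcripts, 3 were tested and 1 was higher, that of the pseudogene DDX11L2. It read 2.88, 2.90 and 2.90 in DMSO and 3.75, 4.61 and 3.43 with teriflunomide, all under log2 5.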

How the results depend on the processing

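The alternatives were 11 settings and the 6 fits without 1 array each. Helicase genes lower numbered 26, and 23 to 26 over all of them. Of 743 gene values recomputed, 716 kept their side of the threshold, 26 lost the call, 1 gained it (DDX54, at -0.26 with poly-A spike centring) and 0 called values reversed. Signs were compared on values rounded to 2 decimals. In 9 of the 716 the sign changed so, in 6 genes that had not passed (DDX5, DHX8, DHX30, DHX36, DHX38 and DHX57). DDX6 and DHX40, which also had not passed, round to 0 and could not be counted. With poly-A spike centring both stood at -0.08. With poly-A spike centring, 1 helicase gene was higher in place of 5, 0 splicing helicases in place of 2 and 4 helicase probe sets in place of 8. With the mean of probe sets, 3 helicase genes were higher, as were 2 other helicases (1 before) and 3 cofactors (6 before). The median log2 fold change of the helicases, -0.29, was -0.17 with no filter and -0.41 with a plain suffix preferred. Without 1 array, helicase probe sets higher ranged from 5 to 8, helicase genes lower from 23 to 26, lower genes of the other helicases from 8 to 9 (10 before) and the median from -0.33 to -0.25. With the replicate block, 25 helicase genes were lower and 4 higher, DHX35 and DDX27 losing their calls. Same-numbered arrays did not deviate together (correlations 0.044, 0.099 and -0.09), so the numbers were not taken as pairs. With no filter 51 helicase genes were tested in place of 45, and with a filter at the 75th percentile of each array 40. Counts and medians of those settings thus cover different genes. The cause of the other shifts was not tested. Values near the floor limit what the arrays show.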
